A study of Mus musculus with 6 samples.

Results

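The genes described here are 10 genes of matrix breakdown in skin wounds: 6 matrix metalloproteases (Mmp2, Mmp3, Mmp9, Mmp10, Mmp13 and Mmp14), 2 tissue inhibitors of metalloproteases (Timp1 and Timp3), and urokinase with its receptor (Plau and Plaur). They were taken by symbol from the 45513 Ensembl gene identifiers of the deposited count table, and all 10 were found. RNA was sequenced from keratinocytes isolated from the skin of 3 mice that lost Lama3 and 3 control mice, on a C57BL/6 background. Lama3 encodes the alpha chain of the laminin that holds basal keratinocytes to the basement membrane. The knockout mice were Lama3flox/flox/K14-CreERT, with loxP sites around exons 50 to 53 on both alleles. The controls were Lama3wt/flox / K14-CreERT in the design text, with 1 floxed allele, whereas their genotype label reads wild type. Both groups therefore carried the tamoxifen-dependent Cre recombinase, driven by the keratin 14 promoter in basal keratinocytes and not in fibroblasts or immune cells. Tamoxifen was given in chow at 400 mg per kg, without a separate statement for the controls, and neither the age of the mice nor the time on chow was given.

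Matrix metalloproteases are zinc enzymes that are made as inactive precursors and cut collagens, laminins and other matrix proteins once activated. Mmp2 and Mmp9 are gelatinases, Mmp3 and Mmp10 are stromelysins, Mmp13 is a collagenase that mouse keratinocytes make at wound edges, and Mmp14 is a membrane-bound protease that activates the Mmp2 precursor. The TIMP proteins block these enzymes, and TIMP3 also blocks several proteases of the ADAM and ADAMTS families. Urokinase (Plau), bound to its receptor Plaur on the cell surface, turns plasminogen into plasmin, which cuts fibrin and activates metalloprotease precursors.

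Library totals ranged from 20126395 to 28473479 counts. In the knockouts Lama3 lay between 79.2 and 98.9 CPM (count divided by the library size in units of 1e+06, after scaling), and in the controls between 114 and 142 CPM, and no library of one group reached the other (log2 fold change -0.53, SE 0.14, edgeR's adjusted p = 0.0215). Those counts take in exons outside the deletion and are a partial check of the genotype, and leaving out control 1, control 2 or knockout 1 ended the call (edgeR's adjusted p = 0.0620, 0.0584 and 0.0551). Xist counts marked 1 of 3 controls and 2 of 3 knockouts as female. The basal keratinocyte keratins Krt5 and Krt14 stood at 8174 ± 1364 and 4247 ± 511 CPM in the controls and at 7349 ± 1297 and 4719 ± 614 CPM in the knockouts (SD, n = 3 each), and neither was called. Of the 4 other keratinocyte markers Krt1 (2974 ± 1180 and 10143 ± 4107 CPM), Krt10 (7645 ± 1064 and 17065 ± 4448 CPM) and Dsg3 (193 ± 28.8 and 348 ± 86.8 CPM) rose. Among markers of other cells, the summed levels of hair and of T cells were lower in every knockout than in every control. So were those of mast cells and endothelium, at low levels, while the summed neutrophil level was higher in every knockout. The summed fibroblast and macrophage levels overlapped. All 5 hair keratins found in the table fell, from a summed 58.4 to 228 CPM in the controls to 0.846 to 1.42 CPM in the knockouts. All 6 T cell markers fell, from 129 to 275 CPM to 50.8 to 73.8 CPM. Over all tested genes 17.4% rose and 18.8% fell. Fewer cells of a type and less RNA per cell cannot be told apart in such bulk samples.

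Mmp13, Mmp3 and Mmp10 lie within the same run of 10 metalloprotease genes on chromosome 9 of GRCm38, and each holds the AP-1 word TGAGTCA, on either strand, shortly before its start. AP-1 is the Fos and Jun transcription factor dimer long studied at metalloprotease promoters. The RefSeq promoter windows, 250 bases before to 50 bases after the start on GRCm38.p6, are shown because these genes of the same run shared the word; of the 3, Mmp13 alone was called in the main test, Mmp3 was not called and Mmp10 had too few counts to be tested. All are on the plus strand, at chr9:7272264-7272563 (Mmp13), chr9:7445572-7445871 (Mmp3) and chr9:7502092-7502391 (Mmp10), and capitals mark the AP-1 word.
Mmp13: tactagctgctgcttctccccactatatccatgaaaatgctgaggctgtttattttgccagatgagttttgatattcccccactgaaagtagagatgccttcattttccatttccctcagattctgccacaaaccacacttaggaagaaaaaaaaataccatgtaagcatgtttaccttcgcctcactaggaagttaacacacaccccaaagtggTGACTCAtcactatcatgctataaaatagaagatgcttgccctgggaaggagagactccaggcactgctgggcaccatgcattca
Mmp3: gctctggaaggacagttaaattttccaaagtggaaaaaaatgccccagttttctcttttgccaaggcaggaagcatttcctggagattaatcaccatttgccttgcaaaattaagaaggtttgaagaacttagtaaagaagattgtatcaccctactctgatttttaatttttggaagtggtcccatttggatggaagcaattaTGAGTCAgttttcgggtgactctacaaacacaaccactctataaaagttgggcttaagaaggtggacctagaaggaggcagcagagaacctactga
Mmp10: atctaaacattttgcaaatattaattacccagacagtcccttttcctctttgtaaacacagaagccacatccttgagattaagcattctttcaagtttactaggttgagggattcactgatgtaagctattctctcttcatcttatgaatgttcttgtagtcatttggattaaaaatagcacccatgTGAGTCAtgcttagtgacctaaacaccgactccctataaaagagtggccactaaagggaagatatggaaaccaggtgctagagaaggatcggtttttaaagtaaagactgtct

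In the Mmp13 window the word begins 35 bases before the start, in the Mmp3 window 46 bases and in the Mmp10 window 63 bases before it. All 3 also hold the TATA box word TATAAA downstream of the AP-1 word and before the start. The RUNX word AACCACA was found in the Mmp13 window alone among the 7 of the 10 genes that had a window (Mmp3, Mmp10, Mmp13, Mmp14, Timp1, Timp3 and Plaur). Plaur was the other gene with the AP-1 word, 69 bases before its start, and its window also held 3 overlapping or adjoining copies of the GC box word GGGCGG. Mmp14, Timp1 and Timp3 held the GC box word and neither TATAAA nor the AP-1 word. The ETS word AGGAAG occurred in 6 of the 7 windows, Mmp10 excepted. Counting both strands, the AP-1 word occurred in 5.20% of the 32851 windows of the reference table, the RUNX word in 5.27%, TATAAA in 13.6%, the GC box word in 35.7% and the ETS word in 35.4%. These matches describe the letters in the windows and show no binding.

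**Figure D1:**
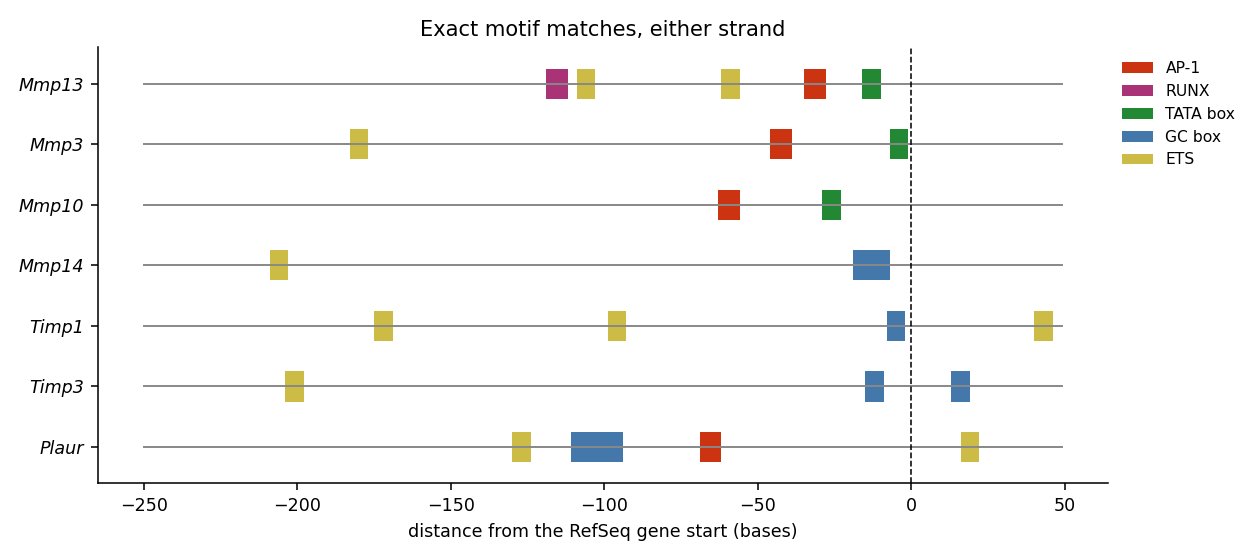
Exact matches to 5 motif words, on either strand, in the 300-base promoter windows of 7 genes; the horizontal axis is the distance in bases from the RefSeq start, which the dashed line marks. AP-1 words lie between 29 and 69 bases before the start in Mmp13, Mmp3, Mmp10 and Plaur. Mmp14, Timp1 and Timp3 have GC box words and no AP-1 word, and Plaur has both.

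Of the 10 genes 7 passed the filter on low counts and were tested. Mmp2, Mmp13 and Timp3 rose in the knockouts, none fell, and Mmp3, Mmp9, Mmp14 and Plau were not called. A gene was called where its p from the quasi-likelihood test of edgeR, adjusted by Benjamini and Hochberg's method across the 15513 tested genes, fell below 0.05. Over all tested genes 17.4% rose, 18.8% fell and 36.2% were called in either direction, so the share of called genes among the 7 was near that of the whole table. Their median log2 fold change was 0.62, against -0.02 over all tested genes. The 7 were chosen with earlier results known and include Mmp13, which passed the filter through its knockout libraries, so this is a description. Mmp10, Timp1 and Plaur held too few counts to enter the test. The alternative fits called between 2 and 5 of the 10 genes higher, and their background shares of higher genes over all genes tested are given here for comparison. They were 11.1% with no filter on low counts, 18.6% with DESeq2 size factors, 11.3% with upper-quartile factors, 18.4% with a minimum of 1 CPM in 3 libraries, 16.7% in DESeq2, 15.6% with the replicate number as a block, 15.3% with sex as a covariate and 3.40% against a fold of 1.5. With 1 library left out they were 11.8%, 14.0% and 10.1% for controls 1 to 3 and 10.5%, 11.7% and 17.3% for knockouts 1 to 3.

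**Figure D2:**
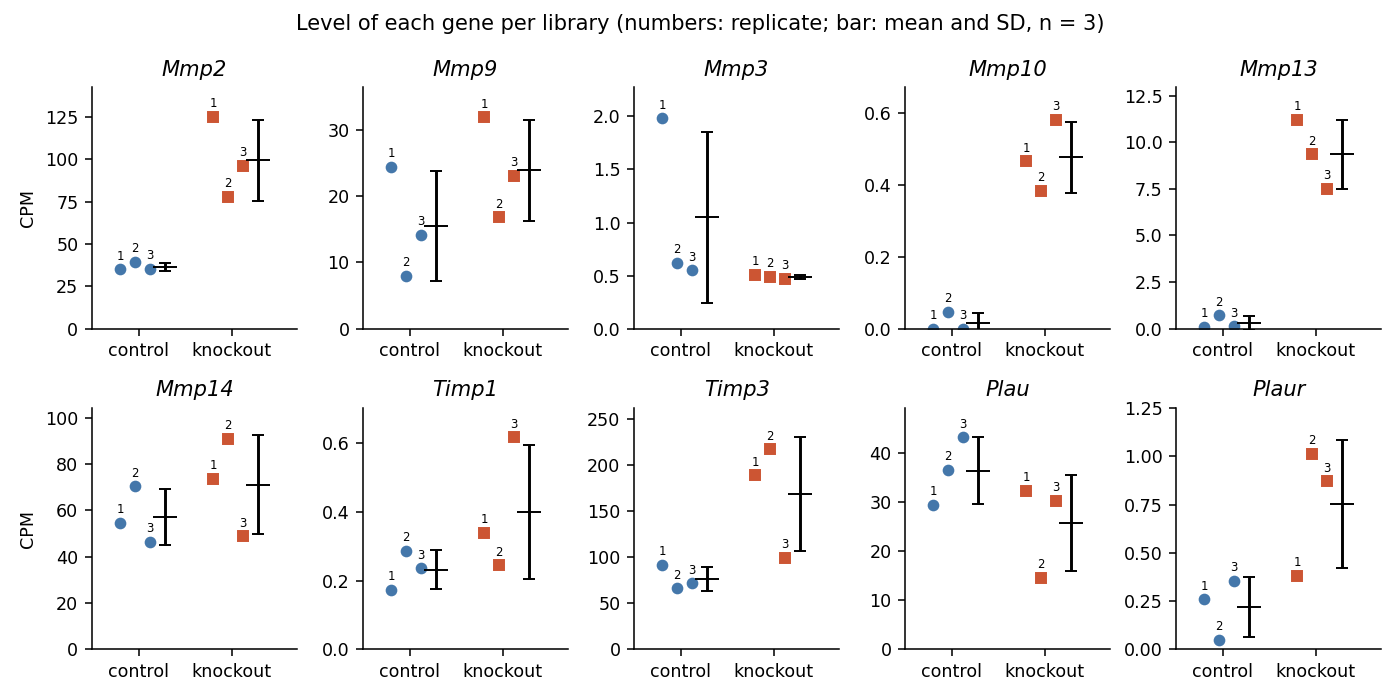
CPM of the 10 genes in each library, with controls as circles, knockouts as squares, the replicate number above each point, and the mean with its SD (n = 3) as a bar; each panel has its own axis from 0. All knockouts lie above all controls for Mmp2, Mmp10, Mmp13, Timp3 and Plaur and below them for Mmp3, while the groups overlap for Mmp9, Mmp14, Timp1 and Plau.

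Mmp13 (chr9:7272514-7283331) showed the highest fitted fold of the 7 genes tested. Its counts were 2, 15 and 3 in controls 1 to 3, or 0.0861, 0.715 and 0.118 CPM, and 265, 268 and 207 in knockouts 1 to 3, or 11.2, 9.35 and 7.51 CPM. The collagenase transcript was thus near the counting limit in the controls and at several CPM in every knockout, with no overlap. The mean rose from 0.306 ± 0.354 to 9.36 ± 1.85 CPM (SD, n = 3 each), a log2 fold change of 4.97 (SE 0.59, edgeR's adjusted p = 0.00188). Only 18 of the 15513 tested genes (0.116%) had a log2 fold change at or above this value. Mmp13 passed the filter on low counts through its knockout libraries, so this rank is a description and lends the rise no support. The size of the fold rests on control 2, which held most of the control counts: without it the log2 fold change was 6.45 (SE 0.39). Mmp13 was called in all 14 alternatives run.

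Mmp10 (chr9:7502352-7510240), a stromelysin that keratinocytes at a wound's migrating edge are known to make, was counted 0, 1 and 0 times in the controls and 11, 11 and 16 times in the knockouts. All knockouts exceeded all controls, at 0.384 to 0.581 CPM against at most 0.0476 CPM. The summed counts of 38 and 1 gave a ratio of 33.1, with a 95% exact interval of 5.60 to 1343 that covers counting error only. In the fit with no filter on low counts its log2 fold change was 4.66 (SE 0.90, edgeR's adjusted p = 0.00133), where 11.1% of all genes rose. DESeq2 gave 4.97 (SE 1.42, adjusted p = 0.00260). Its level stayed under 1 CPM in every library.

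Mmp3 (chr9:7445822-7455975), the stromelysin next to it in function, went the other way. It held 1.98, 0.619 and 0.550 CPM in the controls and 0.507, 0.489 and 0.472 CPM in the knockouts. The knockouts lay just below controls 2 and 3, and control 1 stood apart at more counts (46) than any other library (12 to 14). The log2 fold change of -1.10 (SE 0.54) was not called (edgeR's adjusted p = 0.143) and was -0.25 (SE 0.38, adjusted p = 0.643) without control 1. Transcripts of Mmp3 and Mmp10 share 5 of the 1702 distinct 100-base words of Mmp3, the length of the reads, so a read from those stretches could be credited to either gene.

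The other 7 metalloprotease genes of the run on chromosome 9 were low or at 0. Mmp12, the macrophage elastase, had a control mean of 0.661 ± 0.219 CPM and a knockout mean of 0.259 ± 0.123 CPM (log2 fold change -1.33, SE 0.46, edgeR's adjusted p = 0.0550). It was called without knockout 3 (adjusted p = 0.0386) and with upper-quartile factors (0.0413). No read was counted for Mmp1a or Mmp20 in any library, where a count of 0 allows up to 3 counts or 0.105 to 0.143 CPM per library. Mmp1b and Mmp7 had 1 count each and Mmp8, the neutrophil collagenase, had 3, all in knockout 3, and Mmp27 had 1 count in knockout 1 and 1 in knockout 2. Of the genes in this run only Mmp13 exceeded 1 CPM in a knockout library.

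Mmp2 (chr8:92827291-92853420), a gelatinase that cuts type IV collagen, was measured at 35.1, 39.3 and 35.4 CPM in controls 1 to 3 and at 125, 77.7 and 96.1 CPM in knockouts 1 to 3. The controls were close together, and the lowest knockout stood well above the highest control. Its mean rose from 36.6 ± 2.37 to 99.7 ± 23.9 CPM, a log2 fold change of 1.45 (SE 0.18, edgeR's adjusted p = 0.00188). Mmp2 was called in all 14 alternatives, with log2 fold changes from 1.26 to 1.60. Dermal fibroblasts also express Mmp2, so the fibroblast markers are given beside it. None of 8 fibroblast markers rose and 3 fell (Dcn, Lum and Dpt), where 17.4% of all tested genes rose and 18.8% fell. The median log2 fold change of the 8 was -0.54. Their summed level ran from 30.1 to 96.5 CPM among controls and from 36.0 to 47.0 CPM among knockouts. The collagen gene Col1a1 stood at 12.2 ± 8.24 and 10.8 ± 1.78 CPM. The part of fibroblasts in the Mmp2 level was not tested.

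Mmp14 (chr14:54431612-54445364), the activator of the Mmp2 precursor, is described next to it. Its level was 54.7, 70.4 and 46.3 CPM in the controls and 73.8, 91.1 and 48.7 CPM in the knockouts. Knockout 3 lay within the controls, and control 2 above knockout 3. The log2 fold change of 0.32 (SE 0.24) was not called (edgeR's adjusted p = 0.329), nor was it in any of the 14 alternatives (0.11 to 0.54). Whether the changes of Mmp2 and Mmp14 differ was not tested.

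Mmp9 (chr2:164940780-164955850), the gelatinase of wound edge keratinocytes and of neutrophils and macrophages, varied widely within the control group. It was measured at 24.3, 7.96 and 14.1 CPM in controls 1 to 3 and at 31.8, 16.8 and 23.0 CPM in knockouts 1 to 3. Control 1 exceeded knockouts 2 and 3, so the groups overlapped. The log2 fold change of 0.62 (SE 0.40) was not called (edgeR's adjusted p = 0.249). It was 1.11 (adjusted p = 0.0508) without control 1 and 0.32 (0.474) without control 2. Markers of cells that also make Mmp9 did not all move alike. Of 8 macrophage markers 3 rose (the complement genes C1qa, C1qb and C1qc), where 17.4% of all tested genes rose. The summed level of the 8 was 28.2 to 63.4 CPM in the controls, highest in control 1, and 39.0 to 59.4 CPM in the knockouts. Of 10 neutrophil markers the 3 tested rose (S100a8, S100a9 and Cxcr2, which stressed keratinocytes can express too), from a summed 7.79 to 35.9 CPM to 154 to 1512 CPM. The other 7 of that list had too few counts to be tested. Of these, Ly6g, Retnlg and Elane were at 0 counts in all 6 libraries, and Csf3r had at most 1 count. Endothelial markers, at a summed 1.98 to 3.03 and 1.08 to 1.71 CPM, and mast cell markers, at 5.51 to 13.3 and 1.27 to 3.23 CPM, were low throughout. Both sums were lower in every knockout than in every control. Of the tested markers the mast cell marker Kit, which melanocytes also express, fell and the endothelial Pecam1 was not called. The part of these cells in the Mmp9 level was not tested.

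Timp3 (chr10:86300372-86349506), an inhibitor that binds to the extracellular matrix, rose in the knockouts. It was measured at 91.4, 66.1 and 71.6 CPM in the controls and at 189, 217 and 98.8 CPM in the knockouts. Knockout 3 lay only just above control 1, whereas knockouts 1 and 2 were far higher. By their Xist counts control 1 and knockouts 1 and 2 were the females, and each exceeded the males of its group. The mean went from 76.4 ± 13.3 to 168 ± 61.7 CPM, a log2 fold change of 1.14 (SE 0.28, edgeR's adjusted p = 0.0182). The call rested on single libraries: leaving out control 2, control 3, knockout 1 or knockout 2 ended it, at an adjusted p by edgeR of 0.0533, 0.0604, 0.0576 and 0.0529. It also ended in a test against a fold of 1.5 (0.116), and it was kept in the other 9 alternatives. Among these, the fit with sex as a covariate gave a log2 fold change of 0.84 (SE 0.17, edgeR's adjusted p = 0.0127), the lowest of the 14. Timp3 lies inside Syn3, a gene on the opposite strand, with which it shares 1733 exon bases. Syn3 itself had 7 to 19 counts per library, against 1387 to 6214 for Timp3. Whether the counting used strand was not given in the sources used here. The Syn3 counts do not show whether reads over the shared bases entered the Timp3 count. The level of Timp3 per kilobase, which uses all its exon bases, carries that limit.

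Timp1 (chrX:20870166-20874735), the secreted inhibitor induced in many wounds, was barely detected. Its counts were 4, 6 and 6 in the controls and 8, 7 and 17 in the knockouts, or 0.172 to 0.286 and 0.244 to 0.617 CPM. The groups overlapped, and the ratio of summed counts was 1.74, with a 95% exact interval of 0.930 to 3.40 for counting error. With no filter on low counts the log2 fold change was 0.82 (SE 0.57, edgeR's adjusted p = 0.354). Timp1 is X-linked, and the highest knockout value came from knockout 3, a male by its Xist count. No difference in Timp1 was detected at this depth, and the interval takes in ratios from 0.930 to 3.40 by counting error alone.

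Plau (chr14:20836660-20843385), urokinase, was measured at 29.5, 36.6 and 43.3 CPM in the controls and at 32.4, 14.6 and 30.3 CPM in the knockouts. Knockout 2 was the lowest library, and the other knockouts lay among or near the controls. The log2 fold change of -0.50 (SE 0.29) was not called (edgeR's adjusted p = 0.206), nor was it in any of the 14 alternatives (-0.69 to -0.21). Its receptor Plaur (chr7:24462484-24475968) had 6, 1 and 9 counts in the controls and 9, 29 and 24 in the knockouts. That put every knockout (0.381 to 1.01 CPM) above every control (0.0476 to 0.354 CPM), though knockout 1 lay close to control 3. The summed counts of 62 and 16 gave a ratio of 3.38 (95% exact interval 1.93 to 6.28, counting error only). Plaur was called in the fit with no filter (log2 fold change 1.77, SE 0.59, edgeR's adjusted p = 0.0394), and was not in DESeq2 (adjusted p = 0.0596). Nor was it called in the other fits that tested it. Without control 1, control 2, control 3 or knockout 1 edgeR's adjusted p was 0.116, 0.118, 0.0664 and 0.0537.

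In all, the knockouts lay above every control for 5 of the 10 genes (Mmp2, Mmp10, Mmp13, Timp3 and Plaur) and below every control for Mmp3. Among all tested genes, a set that leaves out Mmp10, Timp1 and Plaur, the groups did not overlap in 51.7%. The knockouts lay above in 25.2% and below in 26.5% of them.

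Levels of different genes were compared per length, as CPM per kilobase of annotated exon. In the controls the order of the means was Plau (15.4 ± 2.90), Mmp2 (10.9 ± 0.703), Mmp14 (9.59 ± 2.05), Timp3 (9.38 ± 1.63), Mmp9 (4.37 ± 2.34), Mmp3 (0.583 ± 0.448), Timp1 (0.261 ± 0.0641), Mmp13 (0.115 ± 0.132), Plaur (0.0840 ± 0.0599) and Mmp10 (0.00922 ± 0.0160). The SDs of Mmp2, Mmp14 and Timp3 overlapped there, and from Mmp3 down each gene's SD range overlapped that of the next, while Plau stood above Mmp2 and Mmp9 below Timp3 beyond their SDs. In the knockouts Mmp2 led with 29.6 ± 7.09, followed by Timp3 (20.6 ± 7.57), Mmp14 (11.9 ± 3.57), Plau (10.9 ± 4.11), Mmp9 (6.74 ± 2.14), Mmp13 (3.50 ± 0.691), Timp1 (0.450 ± 0.218), Plaur (0.288 ± 0.127), Mmp10 (0.277 ± 0.0574) and Mmp3 (0.272 ± 0.00988). Each of the first 5 overlapped the next within the SDs, as did the last 4, and Mmp13 stood apart from both sets. Mmp13 was in the eighth place in the controls and in the sixth in the knockouts. The order of the 4 highest genes depended on the length used. With the longest transcript in place of all exons, a setting added for the order and the shares after the values were seen, the controls ran Mmp14 (17.7 ± 3.77), Timp3 (16.2 ± 2.82), Plau (15.6 ± 2.93) and Mmp2 (11.9 ± 0.770). The knockouts then ran Timp3 (35.6 ± 13.1), Mmp2 (32.4 ± 7.77), Mmp14 (22.0 ± 6.57) and Plau (11.0 ± 4.16). The places of the other 6 genes were the same with both lengths.

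The 6 metalloproteases summed to 22.6 to 27.6 CPM per kilobase in the controls and to 46.6 to 63.3 in the knockouts. Of this sum Mmp2 held 42.8% ± 4.54 in the controls and 56.3% ± 6.45 in the knockouts, and Mmp14 held 37.5% ± 6.35 and 23.2% ± 8.08. Mmp13 made up 0.442% ± 0.497 of it in control and 6.70% ± 0.703 in knockout libraries, and Mmp9 made up 17.0% ± 8.21 and 12.7% ± 2.32. By the longest transcript Mmp14 and not Mmp2 held the larger share in the controls (50.0% ± 6.70 against 34.1% ± 3.43) and in knockout 2 (44.9% against 40.3%), while over the knockouts Mmp2 held 49.05% ± 7.71 and Mmp14 33.5% ± 9.96. Per library and over all exons, the Mmp14 to Mmp2 ratio ran from 0.741 to 1.01 among controls and from 0.287 to 0.663 among knockouts. Timp3 rose as well. The ratio of the summed metalloproteases to summed Timp1 and Timp3 came to 2.68 ± 0.388 for controls and 2.69 ± 0.941 for knockouts. The control values (2.42 to 3.12) lay inside the knockout range (1.75 to 3.63). This ratio leaves out Timp2, so its likeness between the groups does not extend to the balance with all inhibitors. Timp2 did not follow the metalloprotease sum upward: its level per kilobase averaged 24.8 ± 6.36 (controls) and 22.9 ± 5.13 (knockouts), without a call. A ratio with Timp2 included was not computed. Timp2, an inhibitor outside the 10 genes and chosen after its values were seen, was the most abundant TIMP transcript per length in the controls: the Timp3 to Timp2 ratio was 0.398 ± 0.127 there and 0.926 ± 0.411 in the knockouts. Over all exons knockout 2 alone held more Timp3 than Timp2 (ratio 1.38), and by the longest transcript knockout 1 did too (1.32, against 2.27 in knockout 2). These ratios are descriptions, and no test was made of them.

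**Figure D3:**
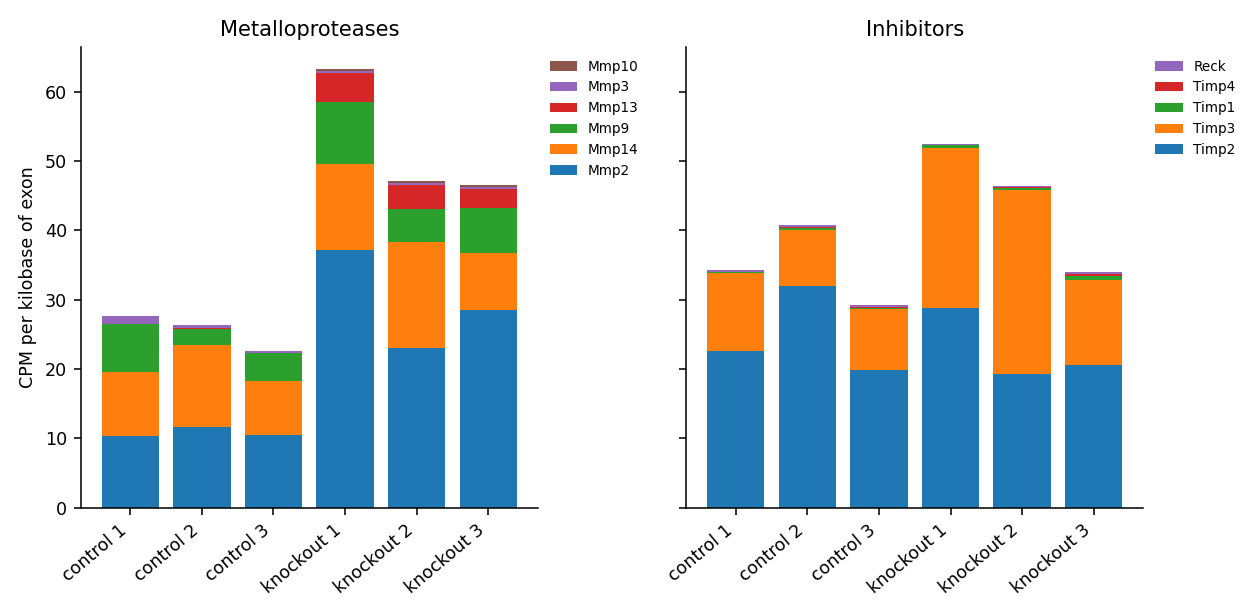
CPM per kilobase of exon in each of the 6 libraries, stacked by gene, for the 6 metalloproteases (left) and for 5 inhibitor genes (right), on the same axis from 0. The metalloprotease stacks reach 22.6 to 27.6 in the controls and 46.6 to 63.3 in the knockouts, with Mmp2 the largest part of each knockout stack at this length (by the longest transcript Mmp14 is the largest in knockout 2), and Timp3 is higher in knockouts 1 and 2 than in knockout 3.

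Plau exceeded Plaur per length in every library, with ratios of 126 to 850 in the controls and 15.9 to 94.1 in the knockouts, which rest on 1 to 29 Plaur counts.

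Of 44 further metalloprotease, inhibitor, plasminogen system and ADAM or ADAMTS genes 30 were tested, of which 7 rose, 5 fell and 18 were not called, with a median log2 fold change of 0.10. These counts lie near the shares over all tested genes (17.4% higher, 18.8% lower). Among the 8 other metalloproteases tested, membrane-anchored Mmp17 went up to 5.45 ± 0.967 from 1.83 ± 0.466 CPM, a log2 difference of 1.58 (SE 0.27), and Mmp15 and Mmp25, membrane-bound as well, fell by 0.67 (SE 0.16) and 1.09 (SE 0.31) on the log2 scale. Their adjusted p by edgeR was 0.00551, 0.0170 and 0.0278. The call of Mmp15 ended without knockout 2 (0.0557) and against a fold of 1.5 (0.484), and that of Mmp25 held in only 3 of the 13 alternatives that could test it: it was lost without control 2, control 3, knockout 1, knockout 2 or knockout 3 (0.0582 to 0.0982). Of the 2 other inhibitors tested, Timp2 and Reck, neither was called, Reck having a log2 fold change of -0.77 (SE 0.35, adjusted p = 0.121).

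Of 9 tested genes of the plasminogen system 1 rose and 1 fell, where 17.4% of all tested genes rose and 18.8% fell. Lrp1, the endocytic receptor that clears protease and inhibitor complexes, was at 69.4 ± 6.44 CPM in control and 122 ± 21.6 CPM in knockout libraries and rose (log2 fold change 0.82, SE 0.15, edgeR's adjusted p = 0.00650), and the plasminogen receptor Plgrkt fell from 69.5 ± 5.97 to 44.6 ± 3.77 CPM (-0.64, SE 0.12, adjusted p = 0.00638). Both calls held in every alternative but the test against a fold of 1.5. The ADAM and ADAMTS proteases, of which 11 were tested, had 5 members that rose and 2 that fell, where 36.2% of all tested genes were called in either direction. Adamts5, an aggrecanase, rose from 1.88 ± 0.489 to 14.3 ± 4.42 CPM (2.93, SE 0.30, adjusted p = 0.00127), and Adam15 and Adam9, membrane-bound sheddases, rose by 1.17 (SE 0.13) and 0.79 (SE 0.11). Adamts9, which acts on versican, fell from 19.9 ± 9.32 to 3.00 ± 0.999 CPM (-2.74, SE 0.43, adjusted p = 0.00439). Adamts5, Adam15 and Adamts9 were called in all 14 alternatives.

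**Figure D4:**
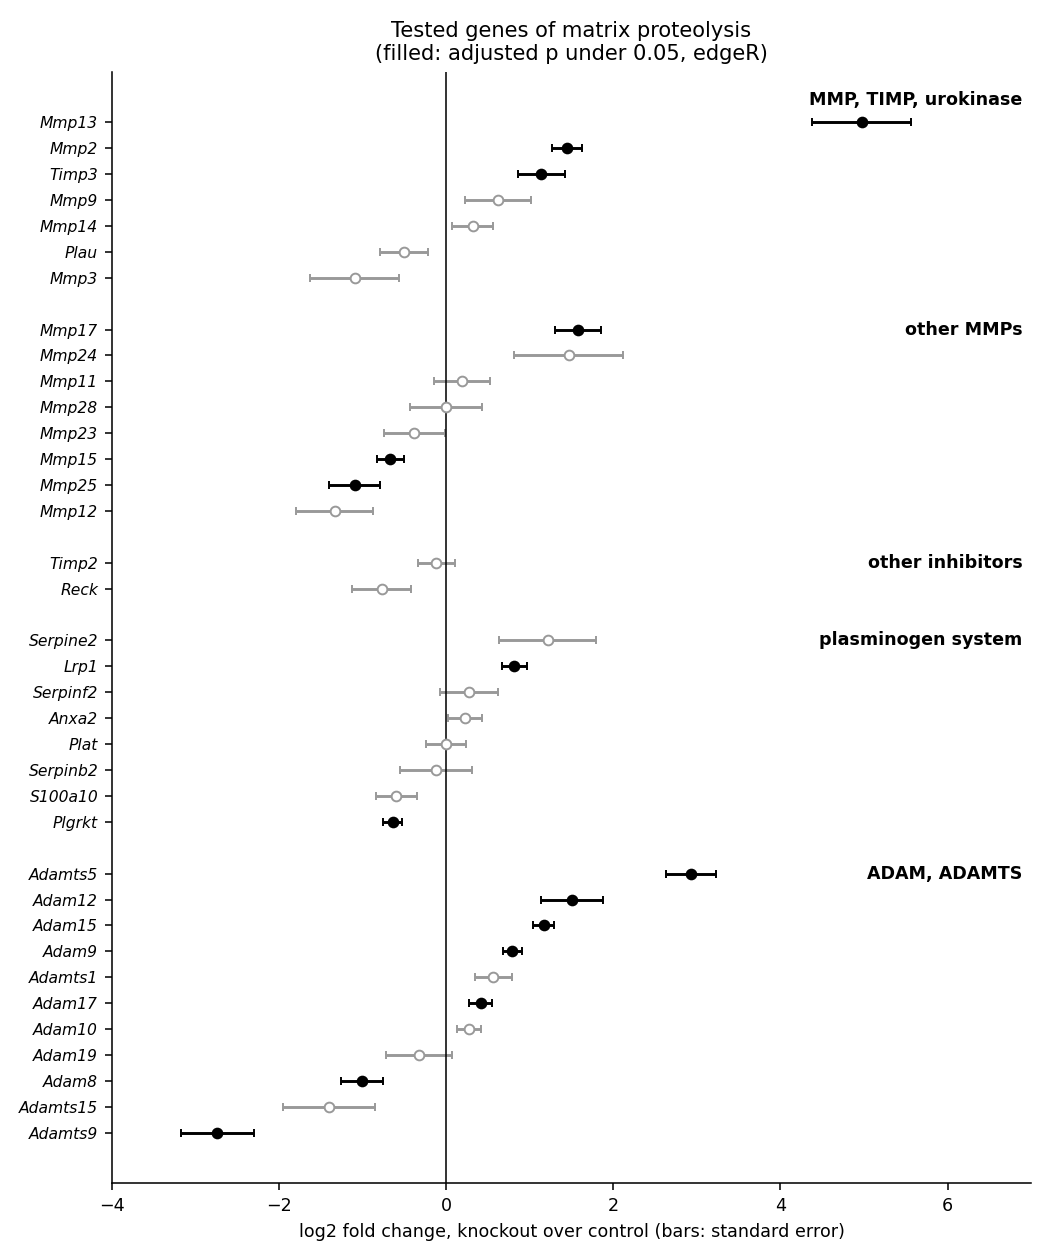
Log2 fold change of knockout over control with its standard error for the 7 tested genes of the set and for other tested genes of matrix proteolysis, filled where the adjusted p was under 0.05. Mmp13 lies at 4.97, Adamts5 at 2.93 and Adamts9 at -2.74, and the genes of each family stand on both sides of 0 except for the other inhibitors.

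The subunits of AP-1, whose word stood in 4 of the promoter windows, were not called. Against 36.2% of all tested genes, none of 7 Fos and Jun family genes passed the test, with a median log2 fold change of -0.25. Fosl1 had the smallest p of them (-1.36, SE 0.68, edgeR's adjusted p = 0.153), with 38.8 CPM in control 1 against 4.14 to 9.77 CPM in the other 5 libraries. Fos was abundant in both groups, with 2026 to 4897 CPM per control and 1593 to 4308 CPM per knockout.

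Among 10689 tested genes with a mean of at least 5 CPM, those whose log2 level ran closest to Mmp2 over the 6 libraries were Degs1, a ceramide synthesis enzyme, Sema3e, a semaphorin, and Serinc2. The root mean square difference of their centred log2 CPM from that of Mmp2 was 0.07, 0.10 and 0.11. Degs1, the closest, had means of 140 and 359 CPM and rose (log2 fold change 1.36, SE 0.17, edgeR's adjusted p = 0.00205). For Mmp2 and Timp3 alike, such genes were picked for likeness over all 6 libraries, group difference included. A rise like that of Mmp2 or Timp3 was thus set by the choice. For Timp3 the closest were Cyfip2 (0.09), Chl1, a neural cell adhesion molecule (0.12), and C2cd2 (0.13). Chl1 had means of 167 and 339 CPM and rose (log2 fold change 1.02, SE 0.24, edgeR's adjusted p = 0.0158), a call lost without knockout 1 (0.0546) and in the test against a fold of 1.5. No gene of the urokinase pair was called, so none was matched to it.

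**Figure D5:**
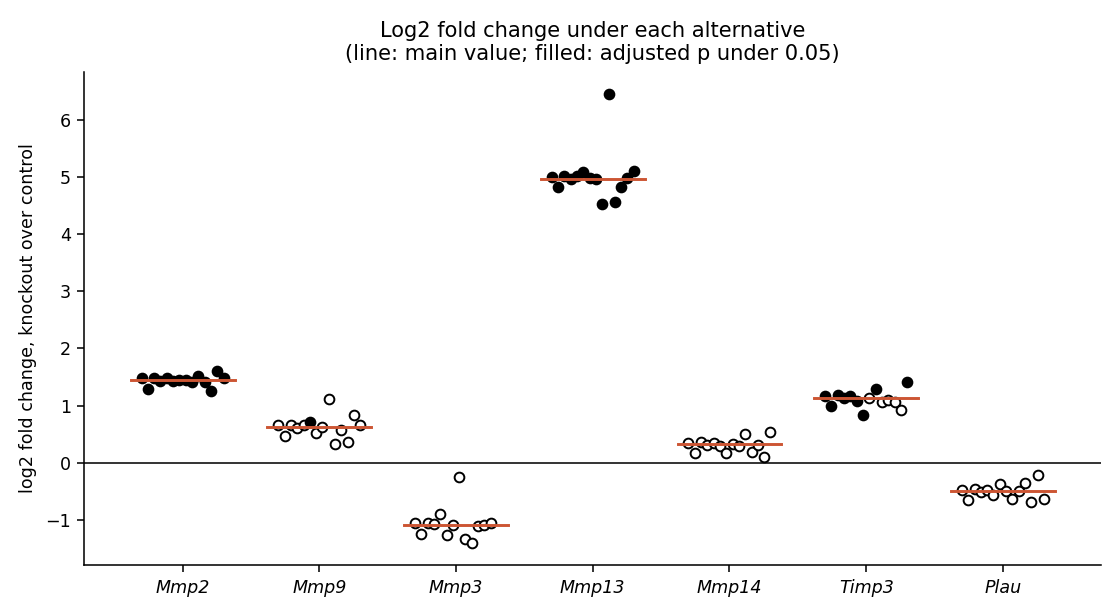
Log2 fold change of the 7 tested genes in each alternative fit (points, filled where the adjusted p was under 0.05) beside the main value (line). Mmp2 and Mmp13 are filled throughout, Timp3 is filled in 9 of 14 fits, and the points of Mmp9, Mmp3, Mmp14 and Plau keep the sign of the main value.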

How the data were processed

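The deposited table held whole-number counts per Ensembl gene, 1 column per library. The build GRCm38 and the tools featureCounts 1.4.6, Cuffdiff 1.3.0 and TopHat 1.3.3 are named in the submitters' processing notes, and reads were paired and 100 bases long per the labels. The annotation release, use of strand and handling of multiply mapping reads are not given in the sources used here.

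Symbols, positions and exon lengths came from GENCODE M21 (44585 of 45513 identifiers matched). Counts were fitted with edgeR 4.0.16 in R 4.3.3, with TMM factors, filterByExpr, robust quasi-likelihood fits, the group as the only term and all 6 libraries. Fold changes are log2 of knockout over control. Their standard error (SE) is the log2 fold change divided by the square root of the F statistic. CPM used TMM-scaled library sizes. Ratios of summed counts have exact conditional binomial intervals, for counting error only. The labels name 3 mice per group, each counted as 1 replicate, and no 2 columns were identical. Promoter windows are from RefSeq on GRCm38.p6.

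The genes and lists were chosen with earlier results of these data known, so list counts are descriptions. Named beside the 10 genes were, per list, up to 4 called genes of smallest p (or the 1 of smallest p), the metalloproteases of the chromosome 9 run, and the 3 genes closest in level to the called metalloprotease and inhibitor of smallest p. Timp2, Syn3 and single marker genes were outside this rule and were chosen with their values known. The keratinocyte marker list (6 genes, none of which fell) served to check the cell type. A gene of the plasminogen list is counted there but not reported here. DESeq2 1.42.0 was an alternative tool.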

Additional observations from a re-analysis of the deposited data

How the results depend on the processing

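Alternatives were other scaling in edgeR (upper-quartile or DESeq2 size factors), DESeq2 itself, low counts left in or a minimum of 1 CPM in 3 libraries, the replicate number as a block, sex (from Xist counts) as a covariate, a test against a fold of 1.5, and each library left out. Among the 10 genes 5 rose with no filter on low counts, and between 2 and 4 rose when a library was left out, while none fell in any alternative. Of the other proteolysis genes 3 rose and 1 fell against a fold of 1.5, and between 3 and 5 fell with a library left out. Over all genes 1756 rose with upper-quartile factors, where 30.57% of the called genes were higher against 47.99% in the main fit and the median log2 fold change of all genes was -0.17. Against a fold of 1.5, 527 rose and 692 fell. Leaving out a library gave 1586 to 2754 genes that rose and 1714 to 2771 that fell. Timp2 (-0.12) changed sign without control 2 (0.12) and without knockout 2 (0.0016), within a range of -0.30 to 0.12. With the length of the longest transcript the control ratio of Timp1 to Timp3 was 0.0169, against 0.0291 with all exons, and that of summed metalloproteases to the 2 inhibitors was 2.17, against 2.68.

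Control and knockout libraries share replicate numbers, but deviations from the group means correlated at -0.09, -0.10 and 0.42 for equal numbers, and not every library correlated best with its own number. With the replicate number as a block 2422 genes rose and 2701 fell. Under this block Mmp9 was called (log2 fold change 0.71, SE 0.17, edgeR's adjusted p = 0.0245), and 4 of the 10 genes rose. Of the other proteolysis genes 6 rose and 4 fell under the block. Depth limits Mmp10, Timp1, Plaur and Mmp3, which held 46 counts or fewer in each library.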
